A study of Macaca mulatta with 6 samples.

Results

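Photoreceptor transcription factors are described here in the retinas of 3 male rhesus macaques, aged 8 to 10 years, whose optic nerve had been irradiated by gamma knife within 1 orbit 24 h earlier. The 10 genes of the group were CRX, NRL, NR2E3, OTX2, RORB, THRB, NEUROD1, RAX, RAX2 and MEF2C, and every probe set of the array whose annotated gene symbol was 1 of these was taken. This gave 12 probe sets of 52024, which stood for 7 of the 10 genes: CRX and NRL with 2 probe sets each, MEF2C with 4, and NR2E3, RORB, RAX and RAX2 with 1 each. OTX2, THRB and NEUROD1 had no probe set under their symbols in the annotation used and were not analysed here. The treated group was the 3 retinas on the side of the irradiated nerve, for which 15 Gy was prescribed, and the control group was the 3 retinas of the other eyes of the same animals. No retina was free of radiation, since 3 Gy reached the treated eyeballs and 1 Gy the control eyeballs, so the control is a less irradiated eye and not an untreated animal. RNA came from the temporal part of the neural retina, dissected without the pigment epithelium, and the Affymetrix array for the rhesus macaque genome was used, with no pooling of retinas. Values are log2 MAS5 signals, in which 1 unit is a 2-fold difference, and MAS5 is the algorithm of the array's manufacturer that combines the probes of a probe set and scales the array.

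These genes form the regulatory cascade that makes and maintains rods and cones. OTX2 commits progenitor cells to the photoreceptor fate and acts upstream of CRX, a homeodomain protein that binds the promoters of most photoreceptor genes. NRL, a leucine zipper protein, directs precursors to become rods and switches on NR2E3, a nuclear receptor that assists the activation of rod genes and represses cone genes. RORB, another nuclear receptor, acts ahead of NRL, while THRB, a thyroid hormone receptor, directs the choice of cone opsin. RAX and RAX2 are homeodomain proteins related to each other, of which RAX sets up the eye field in the embryo and RAX2 acts together with CRX in photoreceptors. MEF2C belongs to a family of factors first known from muscle and is also used by neurons, endothelium and microglia. In a whole retina its signal and that of RORB cannot be assigned to 1 cell type.

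The median log2 signal of the arrays ranged from 6.69 to 7.03 in control retinas and from 6.44 to 6.98 in treated retinas. The lowest of these medians was that of the treated retina of replicate 2, which lay 0.30 below its own control, whereas the difference was −0.049 for replicate 1 and 0.062 for replicate 3. On that array 29.7% of probe sets had a log2 signal under 5, where MAS5 values scatter widely, against 22.6% to 25.9% on the others. Rod and cone genes were present but not evenly bright: the visual arrestin SAG, a rod protein, had log2 signals from 15.25 to 15.54 and the cone arrestin ARR3 from 13.80 to 14.88, whereas CNGB3, a subunit of the cone's cGMP-gated channel, had 7.15 to 8.20 and RGS9, which speeds the shutoff of transducin, 4.96 to 6.45. Markers of the pigment epithelium were not all dim, with TYR, the tyrosinase of melanin synthesis, at 3.49 to 7.22 and TYRP1, another melanin enzyme, at 9.79 to 10.63. Signals of different probe sets are not on 1 scale, since they depend on the probes, so members are compared here between retinas and not with each other.

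None of the 12 probe sets passed the test between treated and control retinas (limma paired by monkey, Benjamini-Hochberg adjustment over the whole array), and the smallest adjusted p was 0.728. Across the array, 0.111% of probe sets passed. All 12 log2 fold changes were below 0, from −0.46 for RORB to −0.00030 for NR2E3, where 54.6% of all probe sets were below 0. The median over the 7 genes, each taken by its brightest probe set, was −0.12, beside 0.032 over all 14132 named genes. Of the 36 differences between the retinas of a monkey, 28 were below 0, and the median over the 12 probe sets was −0.14, −0.20 and −0.11 in replicates 1, 2 and 3. The 12 probe sets stand for 7 genes on the same arrays, so the 36 values are not independent of each other. CRX, NRL, RORB and MEF2C, each by its brightest probe set, were lower in the treated eye of all 3 monkeys, which makes 4 of 12 probe sets beside 16.1% of the array. At an unadjusted p under 0.05, limma gave 2 of the 12 lower, CRX and MEF2C by their brightest probe sets, and 0 higher, beside 3.77% lower and 2.97% higher over the array. By the methods' paired t-test, 1 of 12 was lower at that level, the brightest probe set of NRL, and 0 passed after adjustment. Over the array that test gave 1499 lower of 52024 probe sets, and there too 0 passed after adjustment. Among probe sets with a mean log2 signal of at least 9, a limit chosen after it was seen that most members are bright, 48.1% stood below 0 and 16.8% were lower in all 3 monkeys. Treated and control retinas overlapped for all 12 probe sets, while the groups did not overlap for 6.63% of the array. In a bulk sample a smaller number of photoreceptors and less transcript in each of them cannot be told apart.

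**Figure D1:**
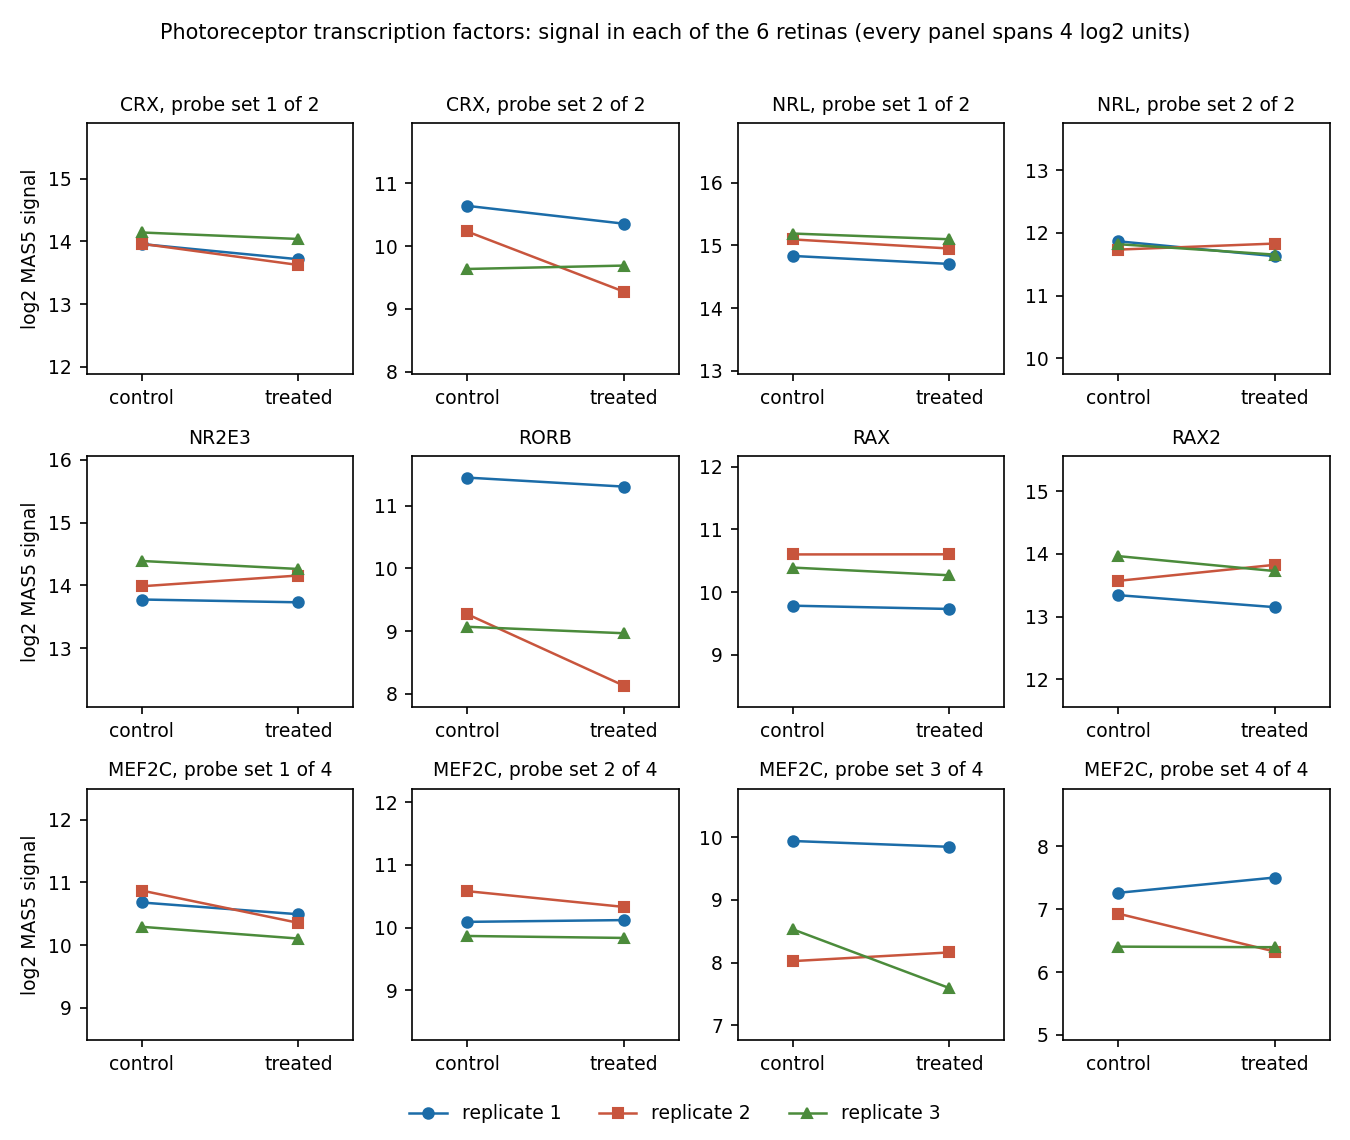
Log2 MAS5 signal (vertical axis, 4 log2 units in every panel) of the 12 probe sets in control and treated retinas, with a line joining both retinas of a monkey and probe sets of a gene numbered from the brightest. The control values of RORB span 2.38 log2 units between monkeys and those of the 3rd MEF2C probe set 1.91, and most lines are nearly level.

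CRX, the homeodomain activator of rod and cone genes, was read by a bright probe set (MmuSTS.2254.1.S1_at) and a dimmer one (MmugDNA.19065.1.S1_at). By the bright one the log2 signal was 13.96, 13.96 and 14.14 in the control retinas of replicates 1 to 3 and 13.72, 13.62 and 14.04 in the treated retinas. The treated retina was the lower one in each of the 3 monkeys, yet the groups overlapped, because the treated retina of replicate 3 lay above both other controls. The means were 14.02 ± 0.105 and 13.79 ± 0.218 (SD, n = 3), a log2 fold change of −0.23 (SE 0.095, 95% interval −0.45 to −0.0069, adjusted p = 0.736 from limma), which is 14.6% less on the linear scale. The dimmer probe set read 10.64, 10.23 and 9.64 in control retinas and 10.36, 9.28 and 9.69 in treated retinas. The mean of −0.40 (SE 0.18, adjusted p = 0.751 from limma) came mostly from replicate 2, with −0.96 there, −0.28 in replicate 1 and 0.054 in replicate 3. Without replicate 2 it was −0.12. The 2 CRX probe sets thus had the same sign in replicates 1 and 2 and opposite signs in replicate 3.

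NRL, the factor that specifies rods, had the brightest of the member probe sets (MmugDNA.26103.1.S1_at), with log2 signals of 14.83, 15.10 and 15.19 in control retinas and 14.70, 14.95 and 15.10 in treated retinas. The 3 differences within monkeys were alike, at −0.13, −0.15 and −0.091, and smaller than the range of 0.36 over the control retinas. The log2 fold change was −0.12 (SE 0.096, 95% interval −0.35 to 0.10, adjusted p = 0.803 from limma). The unadjusted p was 0.0167 in the methods' paired t-test, which takes the variance of the 1 probe set alone, and 0.245 in limma, which moderates it with the variances of the other probe sets. A second NRL probe set (MmuSTS.4643.1.S1_at) read 11.86, 11.73 and 11.82 in control retinas and 11.63, 11.83 and 11.65 in treated retinas, and stood at −0.10 (SE 0.10, adjusted p = 0.837 from limma), with 0.096 in replicate 2 against the sign of the others.

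NR2E3, which acts with NRL and CRX on rod genes and silences cone genes, differed least between the groups (MmugDNA.17748.1.S1_at). Its log2 signal was 13.77, 13.98 and 14.39 in control retinas and 13.73, 14.16 and 14.26 in treated retinas. Replicates 1 and 3 were lower in the treated eye by 0.045 and 0.13 and replicate 2 was higher by 0.17, so that the mean difference was −0.00030 (SE 0.10, adjusted p = 0.999 from limma). The 95% interval of −0.23 to 0.23 corresponds to 14.9% less to 17.5% more transcript signal. Its sign has no meaning at this size: it was 0.022 without replicate 1 and 0.063 without replicate 3.

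RORB, a nuclear receptor used by photoreceptor precursors and by amacrine and horizontal cells, had the lowest log2 fold change of the members (MmugDNA.24682.1.S1_at). The control retinas read 11.45, 9.27 and 9.07 and the treated retinas 11.30, 8.13 and 8.97. Both retinas of replicate 1 were high, at least 2.03 log2 units above the other 4, and the treated retina of replicate 2 was the lowest of all. The log2 fold change was −0.46 (SE 0.21, 95% interval −0.94 to 0.015, adjusted p = 0.748 from limma), made up of −0.14, −1.14 and −0.10 in replicates 1 to 3. Without replicate 2 it was −0.12. By a measure chosen after the RORB values were seen, both retinas of replicate 1 lay more than 1.5 log2 units above the other 4 for 830 probe sets of the array, or 1.60%, of which RORB was the 1 member, and as far below them for 187. Both retinas of replicate 2 lay that far above the others for 65 probe sets and below for 224, and those of replicate 3 for 89 and 162, with 0 members among these.

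RAX, the eye field factor, read 9.78, 10.60 and 10.39 in control retinas and 9.73, 10.60 and 10.27 in treated retinas (MmugDNA.23047.1.S1_at). Both eyes of a monkey were closely alike, and the difference was −0.058 (SE 0.10, 95% interval −0.29 to 0.18, adjusted p = 0.918 from limma). RAX2, its relative in photoreceptors, read 13.34, 13.57 and 13.96 in control retinas and 13.15, 13.82 and 13.73 in treated retinas (MmugDNA.13219.1.S1_at). The mean difference was again −0.058 (SE 0.12, 95% interval −0.33 to 0.22, adjusted p = 0.932 from limma), with −0.19, 0.26 and −0.24 in replicates 1 to 3. The signs in the 3 replicates were those of NR2E3, with replicate 2 higher in the treated eye, and RAX differed there by 0.0020. Without replicate 2 the RAX2 value was −0.21, and without replicate 1 and without replicate 3 it was 0.0088 and 0.032.

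MEF2C was read by 4 probe sets whose log2 fold changes lay between −0.30 and −0.085. The brightest (MmugDNA.34133.1.S1_at) had log2 signals of 10.68, 10.87 and 10.29 in control retinas and 10.49, 10.35 and 10.10 in treated retinas, lower in the treated eye of each monkey. Its log2 fold change of −0.30 (SE 0.11, 95% interval −0.55 to −0.039) had the smallest unadjusted p of the members, 0.0291, and did not pass after adjustment (adjusted p = 0.728 from limma). Without replicate 2 it was −0.19. The next (MmuSTS.2987.1.S1_at) read 10.09, 10.58 and 9.87 against 10.12, 10.33 and 9.84, a difference of −0.085 (SE 0.11, adjusted p = 0.884 from limma). The third was high in both retinas of replicate 1, at 9.94 and 9.84, while the other 4 lay from 7.59 to 8.53. It also stood at −0.30, but this came from a difference of −0.94 in replicate 3, and without that replicate it was 0.023. The dimmest (MmugDNA.41086.1.S1_at), between 6.33 and 7.51, stood at −0.12 (SE 0.32) and at 0.12 without replicate 2. In replicate 3 the treated retina was the lower one by all 4 probe sets, and in replicates 1 and 2 by some of them.

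**Figure D2:**
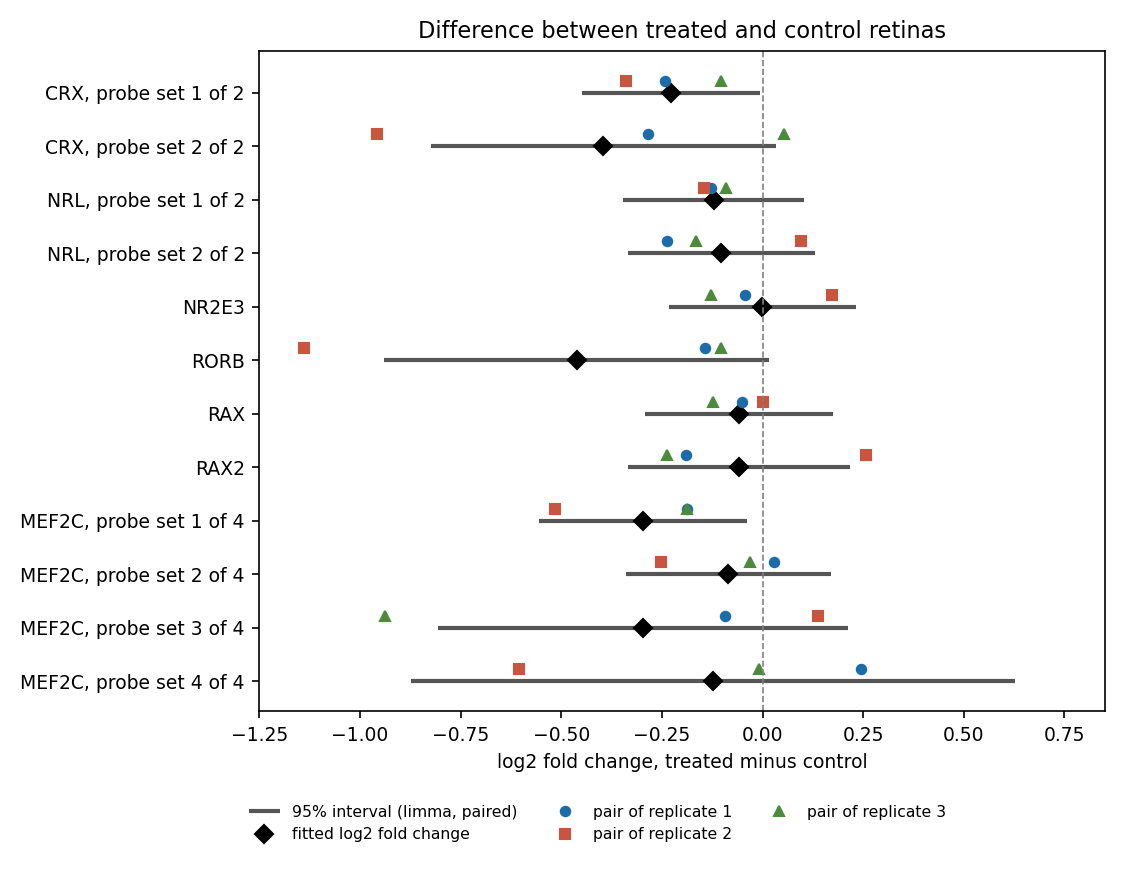
Log2 fold change of each probe set (horizontal axis, treated minus control), with the fitted value as a diamond, its 95% interval as a bar and the difference of each monkey as a smaller symbol above it. The intervals of the brightest CRX and MEF2C probe sets end just below 0 at −0.0069 and −0.039, before any adjustment, and the others include 0.

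Monkeys differed more than eyes. For 10 of the 12 probe sets at least 56.1% of the sum of squares over the 6 retinas lay between monkeys, and the median over all 12 was 84.9% (59.0% over all probe sets of the array). RAX had the largest share between monkeys, 98.8%, followed by NR2E3 with 93.2% and RORB with 92.8%. The share that went with treatment was largest for the brightest probe sets of CRX, 40.0%, and MEF2C, 34.6%. The dimmer NRL probe set had 4.48% between monkeys and 32.2% with treatment, and its 6 values lay between 11.63 and 11.86. The range over the control retinas was larger than the log2 fold change for 11 of the 12 probe sets, the exception being the brightest of CRX, with a range of 0.18 against a log2 fold change of −0.23. The same count was not made over the array, so it says nothing particular about the members. This range lies between monkeys and does not enter the paired test.

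**Figure D3:**
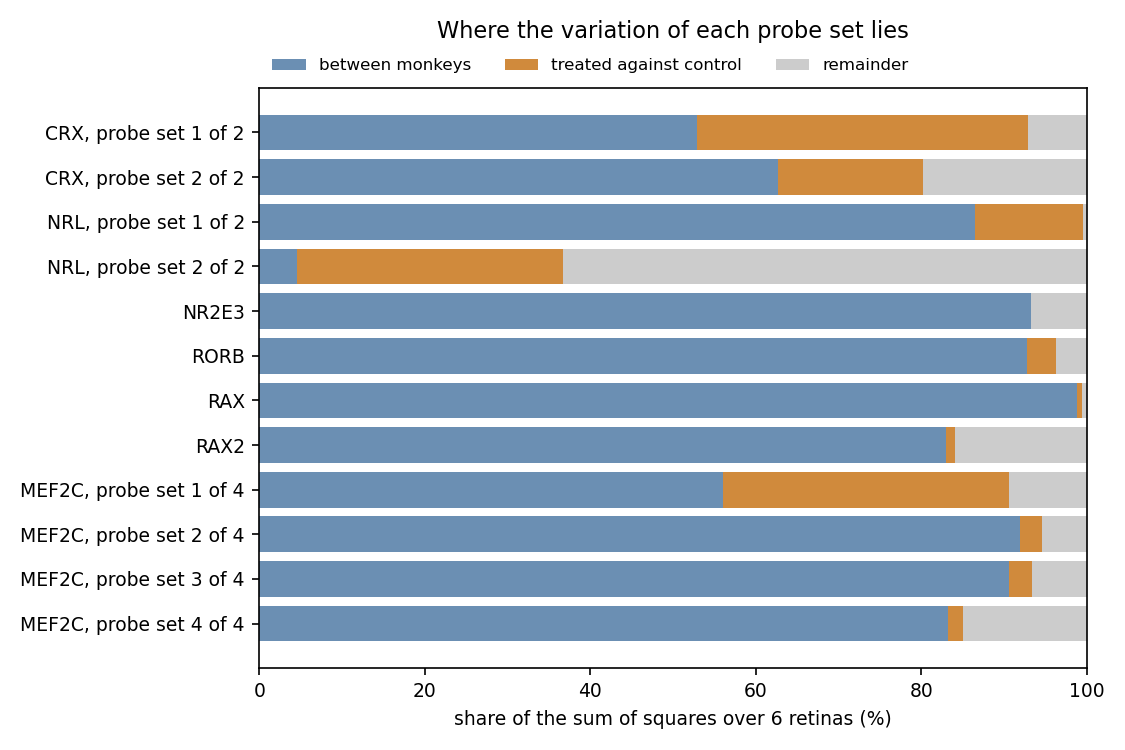
Share of the sum of squares over 6 retinas (horizontal axis, %) that lay between monkeys, between treated and control retinas, and in the remainder, for each probe set. Blue, between monkeys, fills most of each bar except that of the second NRL probe set, where it is 4.48%.

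Genes that CRX, NRL and NR2E3 are known to drive in rods also lay mostly below 0, and none passed the test. Of 24 such genes listed, 18 had a probe set, 16 of them stood below 0, and 13 were lower in the treated eye of all 3 monkeys, where 44.5% and 13.6% of all named genes did so. At an unadjusted p under 0.05, 7 were lower and 1 was higher, beside 3.01% and 5.02% of named genes, and after adjustment over the array 0 passed, beside 0.212% of named genes. The list had a median of −0.20, with −0.19, −0.29 and −0.060 in replicates 1 to 3. These genes were read on the same arrays and many of them share the same cells, so their counts are not independent of each other. Not all of them are confined to rods. CNGB1, a subunit of the rod's cGMP-gated channel, read 11.36, 11.49 and 11.36 in control retinas and 10.89, 10.57 and 10.99 in treated retinas, with no overlap, and stood at −0.59 (SE 0.12, adjusted p = 0.371 from limma). PDE6G, the inhibitory subunit of the rod phosphodiesterase, read 14.83, 14.92 and 14.93 against 14.47, 14.53 and 14.75, also with no overlap, and stood at −0.31 (SE 0.10, adjusted p = 0.676). GNB1, a transducin beta subunit, stood at −0.33 and PDE6A, a catalytic subunit of the phosphodiesterase, at −0.34. GNAT1, the rod transducin alpha subunit, stood at −0.21 with the 3 treated retinas below the 3 controls, and among all named genes 6.99% had no overlap in either direction. Dimmer probe sets stood at −0.72 for CNGB1, −0.54 for GNAT1 and, with the other sign, 0.20 for PDE6A. The highest gene of the list was GUCY2D, a guanylate cyclase of rods and cones, at 0.50 (SE 0.19, adjusted p = 0.733). The 6 genes of the list without a probe set were not analysed here.

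The cone genes on the array were nearer to 0. Of 16 listed, 12 had a probe set, with a median of −0.058. Of these, 8 stood below 0 and 1 was lower in all 3 monkeys, beside 44.5% and 13.6% of all named genes. At an unadjusted p under 0.05, 1 cone gene was lower and 0 were higher, beside 3.01% and 5.02% of named genes. That gene was GNAT2, the cone transducin alpha subunit, at −0.30 (SE 0.12, adjusted p = 0.733 from limma). Its difference was −0.42, −0.48 and 0.0097 in replicates 1 to 3. ARR3, the cone arrestin, stood at −0.17 and was the gene lower in all 3 monkeys. GNB3, a transducin beta subunit of cones and bipolar cells, stood at 0.16, and KCNV2, a potassium channel subunit of both photoreceptors, at −0.14. The difference between the rod and the cone list was not tested, and genes such as GUCY2D and KCNV2 belong to both cell types. OPN1SW, the short-wave opsin, and RXRG, a retinoid receptor that works with THRB in cones, were not analysed here.

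**Figure D4:**
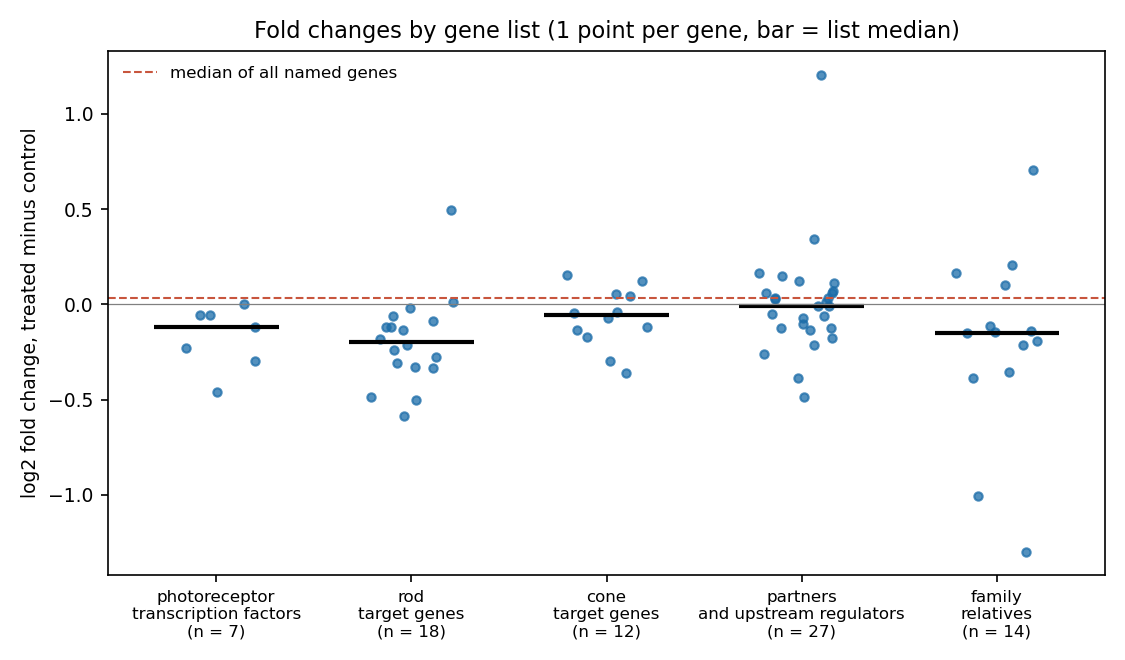
Log2 fold change (vertical axis, treated minus control) of each gene by its brightest probe set, for the photoreceptor factors, their rod and cone targets, their partners and upstream regulators, and relatives from the same protein families; black bars are list medians. The medians of the factors (−0.12) and of the rod targets (−0.20) lie below the dashed median of all named genes at 0.032, and that of the partners is −0.0075.

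Partners and upstream regulators of the cascade were spread to both sides of 0, with a median of −0.0075. Of 27 measured genes 14 were below 0, beside 44.5% of all named genes. RORA, a relative of RORB that takes part in cone gene expression, read 9.81, 11.02 and 11.04 in control retinas and 9.50, 10.37 and 10.85 in treated retinas, and stood at −0.38 (SE 0.12, adjusted p = 0.676 from limma). SAMD7, a repressor that works with CRX in photoreceptors, stood at −0.26 (SE 0.091, adjusted p = 0.716), beside 2 dimmer probe sets at −0.34 and −0.23. HES5, an effector of Notch signalling, stood at −0.49 (adjusted p = 0.752). DIO3, the enzyme that inactivates thyroid hormone, was the highest at 1.21 (SE 0.43, adjusted p = 0.716), from a dim signal of 5.49 to 6.16 in control retinas and 5.86 to 7.98 in treated retinas. At an unadjusted p under 0.05 the list held 2 lower and 1 higher genes, beside 3.01% and 5.02% of all named genes. After adjustment 0 passed, beside 0.212% of named genes.

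Markers of other retinal cells were set beside these values. Over all named genes 44.5% stood below 0. In the linear sums given here the brightest genes of a list weigh most. Ganglion cell markers stood above 0 in 6 of 7 genes (median 0.34), and their summed linear signal was 9180.1 to 12461 in control retinas and 10953.5 to 14423 in treated retinas, higher in the treated eye of all 3 monkeys. Microglial markers stood above 0 in 7 of 10 genes (median 0.61), with summed signals of 2342 to 2774 and 2929.6 to 3266, also higher in all 3 monkeys. Horizontal cell markers were below 0 in 4 of 5 genes (median −0.17), with sums of 2684 to 3689 and 2104 to 3087 that were lower in the treated eye of all 3, and amacrine markers in 5 of 9 (median −0.13), with sums of 13008.5 to 15073 and 13346 to 15033. Endothelial markers were below 0 in 2 of 8 genes (median 0.22) with sums of 1972 to 3135 and 2015 to 3091, and bipolar markers in 4 of 10 (median 0.054) with sums of 27049.6 to 30345 and 26835 to 30898. Müller glia markers were below 0 in 4 of 8 (median −0.064) with sums of 88485 to 113992 and 82501 to 110712, and pigment epithelium markers in 7 of 8 (median −0.24) with sums of 8376 to 11628 and 7038 to 10063. The Müller values ran from −0.60 to 0.58. In all 3 monkeys 2 of these genes were lower and 3 higher, beside 13.6% and 19.3% of all named genes. The lowest was RGR, with −1.87, 0.72 and −0.66 in replicates 1 to 3. In the pigment epithelium list BEST1, TYRP1, MITF and RDH5 had the same signs, and TYR, DCT, PMEL and SERPINF1 did not. The part of pigment epithelium in the RGR value was not tested. The sums of the 5 lists from amacrine to pigment epithelium had no common sign in the 3 monkeys. No gene of these lists was at 0 on any array by its brightest probe set, and none passed the test after adjustment. The part of other cell types in the values of RORB and MEF2C was not tested.

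The direction of the smallest differences depended on how the arrays are scaled. With each array centred on its median, 8 of the 12 probe sets were below 0, as were 43.3% of all probe sets, and NR2E3, RAX, RAX2 and the second MEF2C probe set moved to 0.097, 0.039, 0.039 and 0.012. The brightest probe sets of CRX, NRL and MEF2C and that of RORB were below 0 there as well, at −0.13, −0.024, −0.20 and −0.37. The rod targets then had 13 of 18 genes below 0 and a median of −0.10, and the cone genes 5 of 12 and a median of 0.039, where 30.5% of all named genes were below 0.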

How the data were processed

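Retinal RNA of 3 monkeys was measured on 6 arrays, 1 per retina, and the number of arrays limits the precision. The authors computed MAS5 signals in the GeneSpring software and deposited them on the log2 scale for 52024 probe sets. The labels give replicate numbers and do not name the animal. Since the methods use a paired test, retinas that share a number were taken to be from the same monkey and were paired. Statements about single monkeys rest on that reading. Deviations from the group means correlated at 0.357, 0.137 and 0.161 within a number and from −0.243 to 0.104 between numbers. The deposited values were kept, and treatment was fitted with monkey as a block in limma 3.58.1 (R 4.3.3) with a trended variance prior and Benjamini-Hochberg adjustment over all probe sets. P-values of this fit set a difference against the spread of the 3 differences within monkeys, moderated by the variances of the other probe sets. They do not measure the spread between monkeys, which the block takes out. A probe set was called at an adjusted p under 0.05, and intervals are at 95%. Annotation gave 1 gene symbol for 24956 probe sets, several for 361 and none for 26707. The probe set with the highest mean signal stood for a gene. Every member was named, and of the lists of targets, partners and relatives the 4 genes with the largest moderated statistics, with GNAT1 and ARR3 besides. SAG, CNGB3, RGS9, TYR, TYRP1 and GUCY2D were named after their values were seen. The members and lists were chosen with earlier results of these data known. The script was tested on simulated data. Alternatives were no block, quantile normalization, median centring, a filter at a mean log2 signal of 5, an offset of 32 on the linear signal, no trend, the methods' paired t-test, the median over the probe sets of a gene, and leaving out each replicate. The distribution over probe sets with a mean log2 signal of at least 9 was added after seeing the data.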

Additional observations from a re-analysis of the deposited data

How the results depend on the processing

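No member probe set passed after adjustment under any of the 10 alternatives, with a lowest adjusted p of 0.323, and 110 of 120 member values kept their sign. In the fits with no block, the filter, no trend and the paired t-test, the log2 fold changes equal those of the main fit by construction. Signs could not turn there, and those that did turn came from median centring or from leaving out a replicate. Without the replicate block 0 probe sets of the array passed, against 58 with it, and 0 members had an unadjusted p under 0.05, against 2. These 2 numbers were 0 and 0 for limma without the variance trend, and 0 and 1 for the methods' paired t-test. In these 3 fits 1275, 2889 and 2891 probe sets of the array had an unadjusted p under 0.05, against 3506. With each array centred on its median, 0 members had an unadjusted p under 0.05, beside 2988 of the 52024 probe sets. The median of the member genes was then −0.024 and that of the cone targets 0.039. NR2E3, RAX, RAX2 and the second MEF2C probe set turned to 0.097, 0.039, 0.039 and 0.012. That scaling adds 0.097 to the mean difference of every probe set, and it moved the share of lower values among all probe sets with an unadjusted p under 0.05 from 56.0% to 38.3%. Quantile normalization gave a median of −0.096 for the member genes. Leaving out 1 replicate gave 17 to 222 probe sets over the array and a median of the member genes between −0.14 and −0.12. Members with an unadjusted p under 0.05 numbered 0, 3 and 3 without replicates 1, 2 and 3. Over the array these numbers were 2210, 3808 and 4868. NR2E3 then ranged from −0.086 to 0.063, RAX2 from −0.21 to 0.032, the third MEF2C probe set from −0.52 to 0.023 and the fourth from −0.31 to 0.12. The causes were not tested. Members below 0 numbered 10, 11 and 9 of 12 without replicates 1, 2 and 3, beside 55.0%, 49.0% and 56.3% of all probe sets. MAS5 signals under a log2 of 5 are poorly separated from background, but no member lay there.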

Other observations

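Relatives of the photoreceptor factors, from the MEF2, MAF, ROR and similar families, were also on the array. Of 22 such genes listed, 14 had a probe set, and 10 of them stood below 0, beside 44.5% of all named genes. The median was −0.15 and lay between the values of NEUROD4 and NEUROD6. On some arrays OTX1, NEUROD4, NEUROD6, MAFK, ALX1 and MEF2B, all below 0, had a log2 signal under 5. So had NEUROG2, which stood above 0. The count and the median thus rest partly on signals poorly separated from background. MEF2B read 7.05, 6.31 and 7.07 in control retinas and 6.44, 5.29 and 4.80 in treated retinas, a dim signal that stood at −1.30 on the log2 scale (SE 0.47, adjusted p = 0.716 from limma). MEF2D stood at −0.21 (SE 0.097, adjusted p = 0.751), and its dimmer probe sets at −0.066 and 0.024. MAFF, a small MAF protein that responds to stress, went the other way, with 7.51, 7.87 and 6.37 in control retinas and 8.47, 8.39 and 6.99 in treated retinas. It stood at 0.70 (SE 0.22, adjusted p = 0.676) and was higher in the treated eye of all 3 monkeys. None of these genes passed the test.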
